A study of Homo sapiens with 8 samples.

Results

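The TM4SF family is a group of small proteins that cross the cell membrane several times, and its 6 human genes are TM4SF1, TM4SF4, TM4SF5, TM4SF18, TM4SF19 and TM4SF20. They were taken by symbol from a table of 46427 gene symbols, and all 6 were found there. The RNA came from H7 cells, a human embryonic stem cell line of wild-type genotype, that had been carried through endoderm, foregut and lung progenitor stages in 21 days. Culture on inserts followed, 3 days under medium and then 7 days with the apical side open to air. The labels call the product differentiated type 2 alveolar cells, and type 2 cells secrete surfactant in the alveolus. The 4 groups shared this cell line and protocol: untreated cells, and cells under 500 µl of bleomycin at 24, 240 or 480 µg/ml, added apically and left for 24 hours. Bleomycin breaks DNA and is used to provoke lung fibrosis in animals, and the series looks at fibrosis-related expression in such cells. Each group had 2 libraries, which the labels do not tie to separate cultures, so the errors given here measure the spread between libraries, which may be technical. The stock strength stated in the labels is weaker than any of the 3 doses.

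The TM4SF proteins resemble the tetraspanins in shape but form a family of their own. They sit at the cell surface and in vesicles beside integrins and growth factor receptors, and are best known from cell migration and from tumours. TM4SF1, the L6 antigen, is abundant in endothelium and many epithelia, and in the lung it marks alveolar progenitor cells that respond to Wnt. TM4SF4 belongs to intestine, liver and pancreas. TM4SF5 is known from liver, where it has been tied to epithelial-mesenchymal transition and fibrosis. TM4SF18 is a close relative of TM4SF1, TM4SF19 is known from osteoclasts and macrophages, and TM4SF20 from intestine, where it restrains cleavage of the transcription factor CREB3L1.

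A cluster of 3 members lies side by side on chromosome 3. On GRCh38.p14, TM4SF18 spans chr3:149318498-149333636 on the minus strand, TM4SF1 spans chr3:149369022-149377649 on the minus strand, and TM4SF4 spans chr3:149474697-149503394 on the plus strand. The coding sequences of these neighbours are of nearly equal length, with 201 codons in TM4SF18, 202 in TM4SF1 and 202 in TM4SF4 in the longest coding transcript of GENCODE 29. TM4SF5 lies on chromosome 17 (chr17:4771886-4783211, plus strand) and TM4SF20 on chromosome 2 (chr2:227362038-227381647, minus strand). TM4SF19 lies elsewhere on chromosome 3 (chr3:196323547-196338388, minus strand) and overlaps TM4SF19-AS1 on the other strand. The noncoding readthrough gene TM4SF19-DYNLT2B (chr3:196316085-196338420) covers all of it. A readthrough entry named TM4SF19-TCTEX1D2 had at most 2 counts in a library, and reads shared with it cannot be told apart. TM4SF18 is overlapped by the noncoding gene TM4SF18-AS1 and TM4SF4 by the pseudogene EEF1A1P45, neither of which was analysed here, so reads shared with them cannot be told apart.

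The 250 bases before the annotated start of the neighbouring genes are shown because these 3 genes were lower together at the higher doses. They are RefSeq sequences of GRCh38.p14, read 5′ to 3′ on each gene's own strand, from chr3:149333637-149333886 for TM4SF18, chr3:149377650-149377899 for TM4SF1 and chr3:149474447-149474696 for TM4SF4. Capitals mark matches, on either strand, to the TEAD motif GGAATG, the AP-1 motif TGANTCA, the partial HNF1 site GTTAAT or the TATA box TATAAA.
TM4SF18: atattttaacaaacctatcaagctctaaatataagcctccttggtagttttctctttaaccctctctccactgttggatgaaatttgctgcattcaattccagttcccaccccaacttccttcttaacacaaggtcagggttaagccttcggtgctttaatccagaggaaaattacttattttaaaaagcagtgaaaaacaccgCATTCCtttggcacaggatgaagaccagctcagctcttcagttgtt
TM4SF1: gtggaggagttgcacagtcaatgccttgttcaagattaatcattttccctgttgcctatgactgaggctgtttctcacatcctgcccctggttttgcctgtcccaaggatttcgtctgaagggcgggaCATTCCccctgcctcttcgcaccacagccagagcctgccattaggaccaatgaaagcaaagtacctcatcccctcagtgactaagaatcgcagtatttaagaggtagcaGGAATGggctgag
TM4SF4: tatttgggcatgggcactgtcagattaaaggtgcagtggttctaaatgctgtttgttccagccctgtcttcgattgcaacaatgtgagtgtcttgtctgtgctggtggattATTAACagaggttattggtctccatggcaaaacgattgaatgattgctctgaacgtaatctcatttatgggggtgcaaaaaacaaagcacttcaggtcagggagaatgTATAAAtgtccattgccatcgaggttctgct
TM4SF1 held 2 TEAD matches, 122 and 13 bases before the start, and TM4SF18 held 1, 46 bases before it. TM4SF4 held a TATA box 31 bases before the start and a match to the partial HNF1 site 139 bases before it. No AP-1 match lay in the windows of these 3 genes, and none of these matches overlapped another. Among 27303 promoter windows of the same length, 11.9% held the TEAD motif and 6.6% the AP-1 motif. The partial HNF1 site lay in 6.22% and the TATA box in 11.1%. The matches describe letters, not bound sites. The TM4SF1 window also holds the start of TM4SF1-AS1, a noncoding gene on the other strand whose annotated start lies 0.129 kb from that of TM4SF1.

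Each library held between 53431773 and 67715984 counts. The 2 libraries of 480 µg/ml stood further apart than those of the other groups, with an SD of the log2 ratio between libraries of 0.637 against 0.502 to 0.520. The p53 targets CDKN1A, MDM2, FDXR and GDF15 were called higher at 240 and at 480 µg/ml, with CDKN1A at 174 ± 21.7 CPM (counts per 1000000, SD, n = 2) when untreated and 956 ± 272 CPM at the highest dose. Markers of the labelled cell type were uneven. SFTPC had at most 7 counts in a library and SFTPA1 at most 2. The lung transcription factor gene NKX2-1 stood at 0.923 ± 0.136 CPM (SD, n = 2) in untreated cells. Of 12 type 2 markers, however, 9 were tested. Among these, the surfactant gene SFTPB stood at 15.9 ± 1.38 CPM and LPCAT1 at 118 ± 2.39 CPM in untreated cells. CPM values are scaled by TMM factors, and TPM values (length-scaled, for comparing genes) are as deposited. A gene is said to be called when edgeR's adjusted p over 18303 tested genes is under 0.05. A value ± error with no unit is a log2 fold change ± SE from that fit.

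In untreated cells TM4SF4 and TM4SF1 were the abundant members. TM4SF4 stood at 559.9 ± 8.95 TPM (SD, n = 2) and TM4SF1 at 481 ± 28.6 TPM, which put them at rank 252 and 282 of all symbols. TM4SF5 followed at 35.9 ± 8.10 TPM and TM4SF18 at 13.05 ± 0.758 TPM. The untreated libraries of these 4 genes did not overlap between neighbours in that order, the closest being TM4SF4 at 553.5 TPM in one library and TM4SF1 at 501 TPM in another. TM4SF19 and TM4SF20 were at or near 0. For TM4SF19 the second library of 24 µg/ml had 3 counts and the other 7 libraries had 0. TM4SF20 had 3, 3 and 4 counts in the second library of the untreated, 24 and 480 µg/ml groups, and 0 in the rest. A count of 0 allows up to 3 counts, or 0.0438 to 0.0576 CPM across libraries, for counting error only. These 2 genes did not pass the filter on low counts, so the fit covers 4 of the 6 members, and no fold change is given for TM4SF19 or TM4SF20.

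The members were chosen by symbol, in a family put forward with measured levels and dose responses of these libraries in view. Which of those values counted is not recorded, so the fold changes and calls of members are a description, and no p-value is given for them. The comparisons of the 3 doses with untreated cells share the same 2 untreated libraries. In bulk RNA, fewer cells of a type and less RNA per cell cannot be told apart.

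TM4SF1, the L6 antigen, was lower at each higher dose. Its libraries held 345 and 297 CPM without bleomycin, 261 and 220.3 CPM at 24 µg/ml, 123 and 79.8 CPM at 240 µg/ml, and 54.4 and 46.7 CPM at 480 µg/ml. No library of a dose reached a library of the dose below it. Against untreated cells its log2 fold change was -0.42 ± 0.20 at 24 µg/ml, -1.67 ± 0.21 at 240 µg/ml and -2.67 ± 0.21 at 480 µg/ml. The last value left 15.7% of the untreated mean and placed TM4SF1 156th from the lowest of 18303 tested genes.

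TM4SF4, the intestinal and hepatic member, had a course of similar size. Its libraries held 379 and 347 CPM without bleomycin, 309 and 235 CPM at 24 µg/ml, 143 and 157 CPM at 240 µg/ml, and 52.5 and 52.4 CPM at 480 µg/ml. Again no library overlapped those of the dose below, and the pair at 480 µg/ml was nearly equal. Against untreated cells the log2 fold change was -0.42 ± 0.15 at 24 µg/ml, -1.27 ± 0.15 at 240 µg/ml and -2.79 ± 0.16 at 480 µg/ml. That left 14.4% of the untreated mean and placed it 137th from the lowest.

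TM4SF18, the relative that lies beside TM4SF1, was lower by less. Its libraries held 20.8 and 21.1 CPM without bleomycin, 20.0 and 17.3 CPM at 24 µg/ml, 12.5 and 12.6 CPM at 240 µg/ml, and 9.78 and 8.34 CPM at 480 µg/ml. Both libraries of 240 and of 480 µg/ml lay below all libraries of the lower doses, whereas those of 24 µg/ml lay just under the untreated pair. Its log2 fold changes against untreated cells were -0.17 ± 0.13, -0.75 ± 0.14 and -1.21 ± 0.14, in order of dose, and 43.2% of the untreated mean remained at 480 µg/ml.

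TM4SF5, the liver member linked to fibrosis, spread most between libraries. Its libraries held 13.4 and 9.08 CPM without bleomycin, 10.9 and 6.05 CPM at 24 µg/ml, 8.47 and 7.23 CPM at 240 µg/ml, and 5.54 and 7.87 CPM at 480 µg/ml. The dose groups overlapped one another, although both libraries of 240 and of 480 µg/ml lay below the untreated pair. Its log2 fold changes against untreated cells were -0.41 ± 0.30, -0.52 ± 0.30 and -0.74 ± 0.30, none of them called. That it missed the threshold does not show that it was unchanged.

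**Figure D1:**
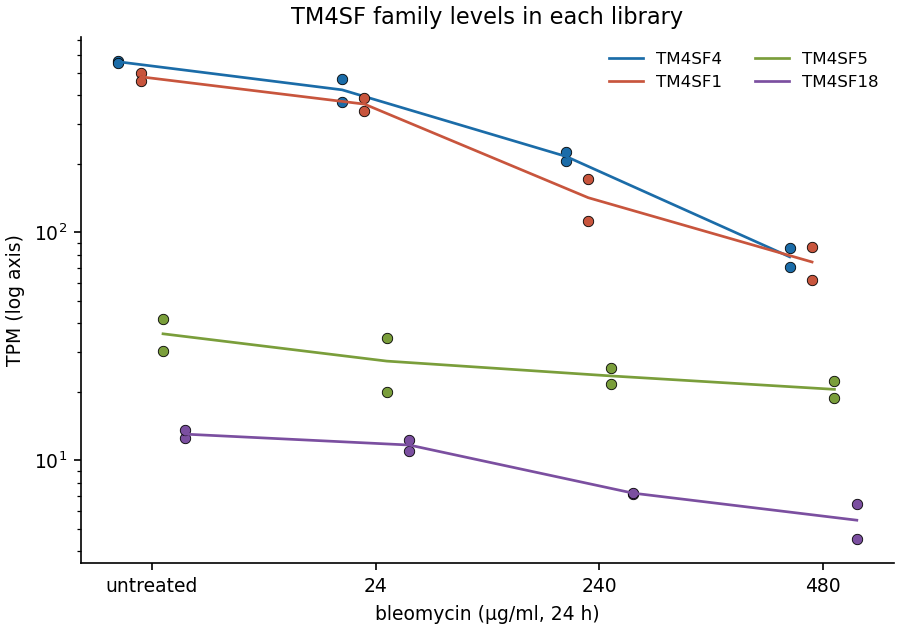
Levels of the 4 tested TM4SF genes as deposited TPM on a log axis, against bleomycin dose. Points are single libraries (2 a group) and lines join group means: TM4SF4 and TM4SF1 run from 559.9 and 481 TPM in untreated cells to 78.1 and 74.2 TPM at 480 µg/ml, while TM4SF5 runs from 35.9 to 20.5 TPM and TM4SF18 from 13.05 to 5.47 TPM.

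Of the 4 tested members, 0 were called at 24 µg/ml, 3 were called lower at 240 µg/ml and 3 at 480 µg/ml, where 0%, 5.17% and 13.9% of all tested genes were called lower, and 0%, 10.3% and 27.8% in either direction. The called members were TM4SF1, TM4SF4 and TM4SF18 at both doses. Their medians over 4 members were -0.41, -1.01 and -1.94 at 24, 240 and 480 µg/ml, beside 0.01 for all tested genes at each dose. Both libraries lay below both untreated ones for 3, 4 and 4 members, which was so for 17.9%, 32.2% and 30.3% of all tested genes. The call of TM4SF18 at 240 µg/ml was lost without either untreated library or either library of 240 µg/ml, with log2 fold changes of -0.76, -0.74, -0.74 and -0.75. At 480 µg/ml TM4SF5 gained a call by DESeq2 and with no filter on low counts, at -0.75 in both. By edgeR over all 8 libraries, 0 genes of any kind were called at 24 µg/ml, with 605 at unadjusted p under 0.05, and DESeq2 called 36.

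The steps between doses can be set side by side for each member. From 24 to 240 µg/ml the log2 difference was -1.25 ± 0.20 for TM4SF1, -0.86 ± 0.15 for TM4SF4, -0.58 ± 0.14 for TM4SF18 and -0.11 ± 0.30 for TM4SF5. From 240 to 480 µg/ml it was -1.001 ± 0.20 for TM4SF1, -1.52 ± 0.15 for TM4SF4, -0.47 ± 0.14 for TM4SF18 and -0.22 ± 0.30 for TM4SF5. Differences between the genes were not tested. Most of the difference between TM4SF1 and TM4SF4 came with the second library of 240 µg/ml. Without that library the log2 fold changes against untreated cells at 240 µg/ml were -1.39 for TM4SF1 and -1.34 for TM4SF4, and those from 240 to 480 µg/ml were -1.28 and -1.45. Without the first library of 240 µg/ml the step to 480 µg/ml was -0.66 for TM4SF1 and -1.59 for TM4SF4. TM4SF4 was the only member called between 240 and 480 µg/ml, where 0.229% of all tested genes were called lower, 0.0273% higher and 0.257% in either direction. Both libraries of 480 µg/ml lay below both of 240 µg/ml for 3 members, as for 19.1% of all tested genes. The TM4SF4 call was lost without untreated replicate 1 or 2, 24 µg/ml replicate 2, or 240 µg/ml replicate 1 or 2, with values from -1.59 to -1.45, and from the 2 groups alone, at -1.51. TM4SF1 gained a call in that step without 480 µg/ml replicate 1 (-1.12) or replicate 2 (-0.89), by DESeq2 (-0.996) and with no filter (-0.993), and TM4SF18 without 480 µg/ml replicate 1 (-0.59).

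**Figure D2:**
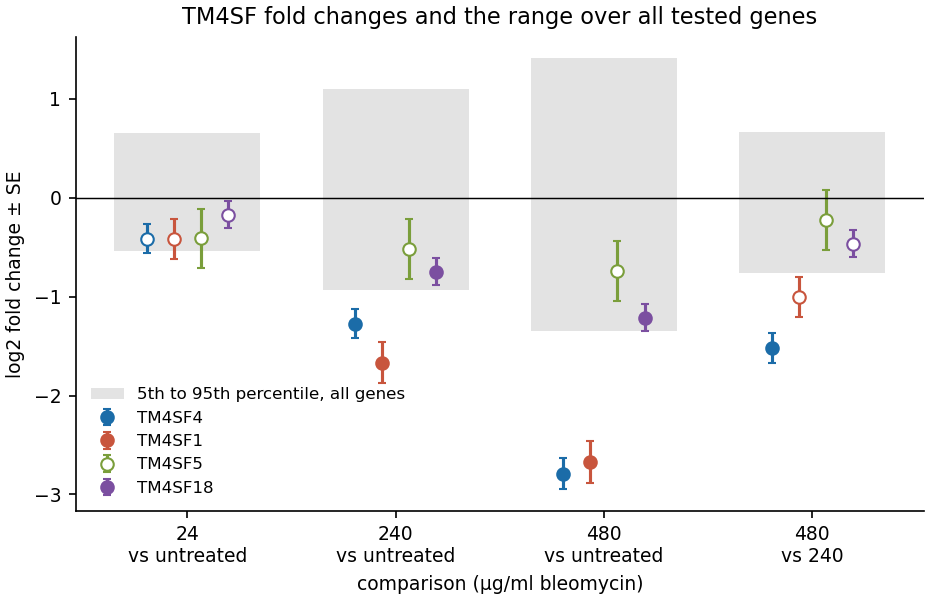
Log2 fold changes ± SE of the 4 tested TM4SF genes in each comparison, over grey bars that span the 5th to 95th percentile of all 18303 tested genes. Filled points were called by edgeR and open ones were not: TM4SF1 and TM4SF4 lie below the grey bars at 240 and 480 µg/ml, at -1.67 and -1.27 and then -2.67 and -2.79, while TM4SF5 and TM4SF18 lie within them.

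The make-up of the family's transcripts shifted with dose. The summed TPM of the 6 genes was 1122 and 1058 in the untreated libraries and, in order of dose, 908 and 744, then 409 and 367, then 197 and 159. TM4SF4 and TM4SF1 made up most of it in each library. TM4SF5 took 3.71% and 2.85% of the sum in untreated cells and 9.53% and 13.9% at 480 µg/ml, and the shares did not overlap. TM4SF18 took 1.11% and 1.28% in untreated cells and 3.25% and 2.84% at 480 µg/ml. At 480 µg/ml TM4SF4 and TM4SF1 could not be ordered, with 85.5 and 70.8 TPM for TM4SF4 and 86.5 and 61.8 TPM for TM4SF1. The ratio of TM4SF4 counts to TM4SF1 counts was 1.97 in 240 µg/ml replicate 2 and between 0.966 and 1.19 in the other 7 libraries. That library held the lower TM4SF1 level and the higher TM4SF4 level of its pair.

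**Figure D3:**
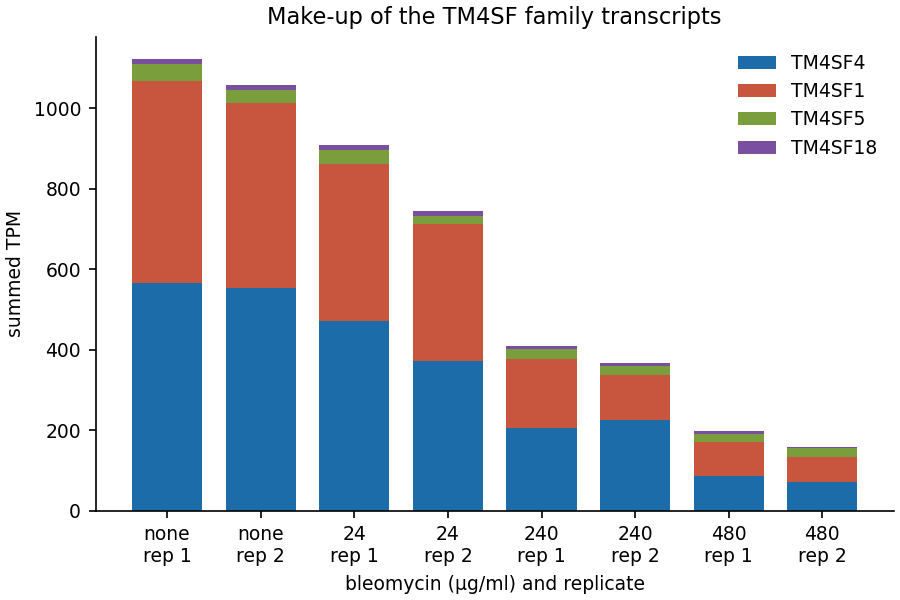
Summed TPM of TM4SF4, TM4SF1, TM4SF5 and TM4SF18 in each library, stacked, by bleomycin dose and replicate (none is untreated). The sum runs from 1122 TPM in untreated replicate 1 to 159 TPM in 480 µg/ml replicate 2, and TM4SF5 takes a larger share of the bars at 480 µg/ml (9.53% and 13.9%) than of those of untreated cells (3.71% and 2.85%).

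Genes around the chromosome 3 cluster did not all move with it. Within 250 kb of TM4SF18, TM4SF1 or TM4SF4 the annotation has 19 other genes, of which 12 were in the table and 6 were tested. By edgeR, 1 of the 6 was called lower at 240 µg/ml and 2 at 480 µg/ml, and 0 were called higher at either dose (median -0.58 at 480 µg/ml). Of all tested genes, 5.17% were called lower and 5.16% higher at 240 µg/ml, and 13.9% each way at 480 µg/ml. CP, which encodes the copper carrier ceruloplasmin and lies 96.7 kb from TM4SF18, fell at 240 µg/ml (-2.75 ± 0.26, adjusted p = 0.0013) and at 480 µg/ml (-4.04 ± 0.28, adjusted p = 0.000107). TM4SF1-AS1, the noncoding neighbour that starts next to TM4SF1, had 61 and 62 counts without bleomycin and, in order of dose, 57 and 49, then 41 and 26, then 27 and 29. It fell at 480 µg/ml (-1.20 ± 0.36, edgeR adjusted p = 0.0359) but was not called at 240 µg/ml (-0.85 ± 0.35, edgeR adjusted p = 0.163). At 240 µg/ml it gained a call by limma on log2(TPM + 1) (-0.76, limma adjusted p = 0.0334) and on log2(TPM + 0.1) (-1.07, limma adjusted p = 0.0449). Its call at 480 µg/ml was lost by DESeq2 (adjusted p = 0.0897), from the 2 groups alone and without any 1 of the untreated, 24 µg/ml or 480 µg/ml libraries (adjusted p from 0.0519 to 0.128). The kit marks strand, but whether the counting used it is not given in the sources used here.

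WWTR1, which encodes the TEAD coactivator TAZ and lies 13.8 kb beyond TM4SF4, had -0.45 ± 0.19 at 480 µg/ml (edgeR adjusted p = 0.108). HPS3, a gene of lysosome-related organelles, had -0.09 ± 0.19 (edgeR adjusted p = 0.736). HLTF, a DNA repair helicase gene, had -0.71 ± 0.31 (edgeR adjusted p = 0.12), and COMMD2 had 0.33 ± 0.13 (edgeR adjusted p = 0.0781). Without 480 µg/ml replicate 1 the first 3 of these were called lower (WWTR1 -0.79, HPS3 -0.47, HLTF -1.42), and without 480 µg/ml replicate 2 HPS3 stood at 0.19 and COMMD2 was called higher at 0.43. With no filter on low counts WWTR1 and HLTF were called at -0.45 and -0.71, and HLTF was called by DESeq2 at -0.71.

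**Figure D4:**
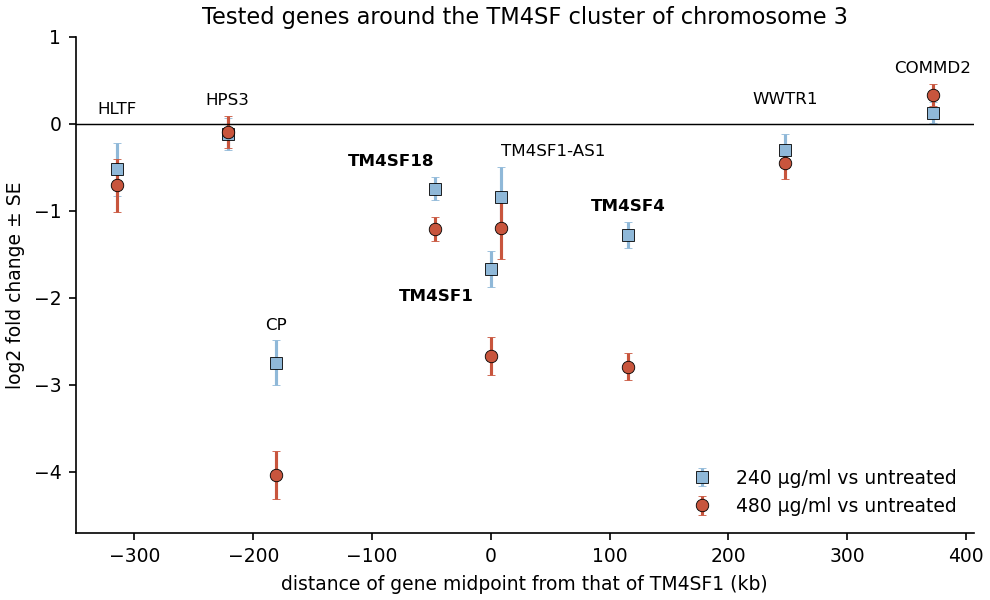
Log2 fold changes ± SE against untreated cells for the tested genes around the cluster, by distance in kb of the gene's midpoint from that of TM4SF1, with squares for 240 µg/ml and circles for 480 µg/ml. TM4SF18, TM4SF1 and TM4SF4 (bold) lie at -1.21, -2.67 and -2.79 at 480 µg/ml, CP lies lower at -4.04, and HPS3 and COMMD2 lie near or above 0.

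Genes around the members elsewhere in the genome were counted in the same way, with 13.9% of all tested genes called lower and 13.9% called higher at 480 µg/ml. Within 250 kb of TM4SF5, 24 of 44 annotated genes were tested, and 3 were called lower and 5 higher at 480 µg/ml. Near TM4SF19, 9 of 26 were tested, and 4 were called lower and 0 higher. Near TM4SF20, 5 of 17 were tested and 0 were called. The nearest tested genes were VMO1 beside TM4SF5 (1.504 ± 0.42, edgeR adjusted p = 0.0273), UBXN7 beside TM4SF19 (-0.42 ± 0.25, edgeR adjusted p = 0.243) and MFF beside TM4SF20 (0.18 ± 0.12, edgeR adjusted p = 0.285). The VMO1 call was lost by DESeq2, from the 2 groups alone, without either untreated library and without the first library of 480 µg/ml (adjusted p between 0.0596 and 0.153). Without 480 µg/ml replicate 1 UBXN7 was called at -0.99 and MFF at 0.25.

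The genes of proteins reported to work with TM4SF proteins were mixed. Of 15 such genes, all tested, 0 were called at 24 µg/ml, 2 were called lower and 0 higher at 240 µg/ml, and 4 were called lower and 1 higher at 480 µg/ml. Among all tested genes 5.17% were lower and 5.16% higher at 240 µg/ml, and 13.9% were lower and 13.9% higher at 480 µg/ml. The median at 480 µg/ml was -0.22, beside 0.01 for all genes. SLC7A1, the arginine transporter gene whose product binds TM4SF5, fell at 240 µg/ml (-1.54 ± 0.15, edgeR adjusted p = 0.00156). It fell from 39.4 ± 0.340 CPM (SD, n = 2) when untreated to 9.09 ± 1.47 CPM at 480 µg/ml (-2.12 ± 0.16, edgeR adjusted p = 0.000112). SDCBP2, which encodes syntenin-2, a PDZ protein that binds the tail of TM4SF1, fell at 480 µg/ml (-1.53 ± 0.29, edgeR adjusted p = 0.00577). MTOR, the growth kinase gene, rose (0.85 ± 0.11, edgeR adjusted p = 0.00114).

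ITGA2, the gene of a collagen-binding integrin chain, fell at 240 µg/ml (-1.27 ± 0.26, edgeR adjusted p = 0.0197) and at 480 µg/ml (-0.90 ± 0.26, edgeR adjusted p = 0.0302). The first call was lost without an untreated library or a library of 240 µg/ml (adjusted p from 0.0537 to 0.167). The second was lost in 8 of 16 alternatives, among them those without any 1 untreated or 24 µg/ml library and that without the second library of 480 µg/ml (adjusted p between 0.0517 and 0.144 in all 8). IGF1R, a growth factor receptor gene, fell at 480 µg/ml (-0.64 ± 0.14, edgeR adjusted p = 0.0101), and the call was lost without untreated replicate 2 (adjusted p = 0.0896) and from the 2 groups alone (adjusted p = 0.0586). DDR1, the collagen receptor gene tied to TM4SF1, had -0.22 ± 0.14 (edgeR adjusted p = 0.283) and was called without 480 µg/ml replicate 2 (-0.42). CREB3L1, which TM4SF20 acts on, had 0.10 ± 0.17 (edgeR adjusted p = 0.69), with 0.33 and a call without 480 µg/ml replicate 1 and -0.18 without 480 µg/ml replicate 2.

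The tetraspanins, a separate family of similar shape, had calls in both directions. Of 33 genes 29 were tested, and 4 were called higher and 2 lower at 240 µg/ml, and 6 higher and 5 lower at 480 µg/ml. Of all tested genes, 5.16% were called higher and 5.17% lower at 240 µg/ml, and 13.9% each way at 480 µg/ml. The tetraspanins' median at 480 µg/ml was 0.05, beside -1.94 for the 4 TM4SF members, a contrast that was not tested. UPK1B, a gene of the bladder lining (-1.39 ± 0.14, edgeR adjusted p = 0.0004), and CD9, a widespread tetraspanin gene (-0.995 ± 0.13, edgeR adjusted p = 0.000922), fell at 480 µg/ml. TSPAN11 rose (1.62 ± 0.22, edgeR adjusted p = 0.00126).

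Marker genes of the cell types in which TM4SF genes are best known were read in the same libraries. Of all tested genes, 13.9% were called higher and 13.9% lower at 480 µg/ml, which is the share to set beside the counts of each list. For the hepatic markers (14 of 14 tested), 5 were called higher and 1 lower at 480 µg/ml. Their summed level was 54464 to 56075 CPM without bleomycin, 40833 to 59599 at 24 µg/ml, 79472 to 86269 at 240 µg/ml and 67160 to 71469 at 480 µg/ml. At 24 µg/ml this range spanned the untreated one. At 240 and 480 µg/ml the sum lay above the untreated range, and it was lower at 480 than at 240 µg/ml. AFP, the fetal serum protein gene, made up most of the sum, with 43340 CPM in untreated cells, and was not called at 480 µg/ml (0.20 ± 0.16, edgeR adjusted p = 0.37). The called genes with the smallest p were the fibrinogen genes, all higher. They were FGA (2.58 ± 0.22, edgeR adjusted p = 0.000195), FGB (1.35 ± 0.15, edgeR adjusted p = 0.000586) and FGG (1.92 ± 0.27, edgeR adjusted p = 0.0014). APOC3 was the gene called lower (-1.44 ± 0.33, edgeR adjusted p = 0.012). Intestinal markers (13 of 14 tested) had 2 called higher and 5 lower, and summed levels of 3479 to 3518 CPM without bleomycin, 2724 to 3513 at 24 µg/ml, 3191 to 3895 at 240 µg/ml and 3312 to 3695 at 480 µg/ml. Among them FABP1, a fatty acid binding protein gene, fell (-1.29 ± 0.18, edgeR adjusted p = 0.00132), CDX2, the intestinal transcription factor gene, rose (0.97 ± 0.14, edgeR adjusted p = 0.00143), and GPA33, an intestinal surface antigen gene, fell (-2.22 ± 0.32, edgeR adjusted p = 0.00163). CDH17 made up most of the intestinal sum, with 1905 CPM in untreated cells, and was not called at 480 µg/ml (0.11 ± 0.17, edgeR adjusted p = 0.644).

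Endothelial markers, read because TM4SF1 and TM4SF18 are known from that cell type, were low but present. All 8 were tested, with 1 called higher and 2 lower at 480 µg/ml, beside 13.9% of all tested genes each way. TEK, the gene called higher, had at most 11 counts in a library and 0 CPM in untreated cells. Of those called lower, CLDN5 had at most 16 counts and 0 CPM at 480 µg/ml. ESAM, the other, had -0.84 ± 0.27 (edgeR adjusted p = 0.0466, with the call kept in 6 of 16 alternatives). PECAM1 was the most abundant at 4.57 CPM in untreated cells. The 8 genes summed to 8.13 to 10.3 CPM without bleomycin and, in order of dose, to 6.05 to 9.28, 7.49 to 7.76 and 7.40 to 8.83 CPM, against 297 to 345 CPM for TM4SF1 alone in untreated cells. Of type 2 alveolar markers, 9 of 12 were tested, with 1 called higher and 5 lower at 480 µg/ml. They summed to 203 to 210 CPM (untreated), 205 to 222 (24 µg/ml), 145 to 150 (240 µg/ml) and 123 to 127 (480 µg/ml). The sum was lower than in untreated cells at 240 and 480 µg/ml and not at 24 µg/ml. LPCAT1, a surfactant lipid enzyme gene, made up most of it, with 118 CPM in untreated cells, and fell at 480 µg/ml (-0.97 ± 0.11, edgeR adjusted p = 0.000624). ABCA3, the surfactant lipid transporter gene, rose (1.15 ± 0.16, edgeR adjusted p = 0.00154). SLC34A2, the phosphate transporter gene of type 2 cells, had the smallest p among them and fell (-3.35 ± 0.32, edgeR adjusted p = 0.00029). Type 1 alveolar markers (7 of 8 tested) had 0 higher and 3 lower, and summed to 68.1 to 75.5 CPM without bleomycin, 62.7 to 63.4 at 24 µg/ml, 63.8 to 67.3 at 240 µg/ml and 40.1 to 50.1 at 480 µg/ml. Mesenchymal markers (8 of 8 tested) had 0 higher and 5 lower, with sums of 464 to 502, 454 to 469, 416 to 542 and 431 to 489 CPM in the same order. LUM made up most of that, at 316 CPM in untreated cells, and was not called at 480 µg/ml (0.20 ± 0.17, edgeR adjusted p = 0.402). Those called lower with the smallest p were PDGFRA (-1.56 ± 0.23, edgeR adjusted p = 0.00163), DCN (-2.21 ± 0.37, edgeR adjusted p = 0.00292) and COL3A1 (-1.03 ± 0.17, edgeR adjusted p = 0.00309). Macrophage and osteoclast markers (6 of 8 tested) had 1 higher and 1 lower, with sums of 109 to 124, 106 to 117, 118 to 144 and 110 to 146 CPM. CD68, a lysosomal gene, made up most of that, at 100.2 CPM in untreated cells. PTPRC, the gene called higher, had 0 counts in both untreated libraries and a mean of 0.322 CPM at the highest dose. CSF1R, the gene called lower, had -0.66 ± 0.20 (edgeR adjusted p = 0.0346, with the call kept in 7 of 16 alternatives). ACP5 and DCSTAMP had at most 5 and 2 counts. The part of any of these cell types in the TM4SF levels was not tested.

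The 3 chromosome 3 neighbours kept close step across the 8 libraries, with Pearson's r of log2 CPM of 0.983 for TM4SF1 with TM4SF18, 0.977 for TM4SF4 with TM4SF18 and 0.964 for TM4SF1 with TM4SF4. TM4SF5 had r of 0.602 to 0.648 with them. These correlations run across the 4 doses and share the libraries, so they describe a common course with dose. Other genes had the same course: of 9891 candidates, 425 had r over 0.95 with TM4SF1, 292 with TM4SF4, 486 with TM4SF18 and 2 with TM4SF5. The closest to TM4SF1 were VDAC1 (r = 0.996, a mitochondrial channel gene with pseudogene copies that could share reads), C6orf132 (0.995) and MRPL3 (0.994), with log2 fold changes at 480 µg/ml of -0.80, -0.59 and -0.54. Closest to TM4SF4 were LRRC3 (0.996), AFMID (0.988) and PTGIS (0.987), at -1.43, -1.47 and -1.32. For TM4SF18 they were AFAP1 (0.996), SLC17A4 (0.995) and MTARC1 (0.995), at -1.07, -3.86 and -1.56, and for TM4SF5 ADAP1 (0.989), NADK (0.953) and MISP (0.9498), at -0.55, -0.22 and -0.35. A high r thus went with fold changes of widely different size.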

How the data were processed

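Messenger RNA libraries (TruSeq stranded, from 1 µg of total RNA) of 8 samples in 4 groups were analysed. Per the submitters' processing notes, the tools were StringTie, HISAT2, Bowtie2 and Trimmomatic, on build GRCh38; versions, annotation and strand are not given in the sources used here. The deposited read counts carry no normalization. The TPM values deposited by the authors sum to 1000000 per library, and the FPKM values deposited by the authors, proportional to TPM within a library, were not used further. Counts were fitted in edgeR 4.0.16 (R 4.3.3; TMM, filterByExpr, quasi-likelihood F test, group as the only term, all 8 libraries), with Benjamini-Hochberg adjustment over 18303 genes and a threshold of 0.05. The SE is the log2 fold change divided by the square root of F. Residual degrees of freedom were 4 and prior ones 4.98. On simulated counts of 17911 genes for 480 µg/ml against untreated cells, 50 genes of average log2 CPM above 1 were changed at each fold. Of genes changed 1.5-fold 32% were recovered, of those changed 2-fold 94% and of those changed 4-fold 100%, with 12 false calls. The simulated spread followed the trend with level and was the same in all groups, whereas the real libraries of 480 µg/ml stood further apart. The figures are thus not error rates of the real counts.

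Members, lists and tests were chosen with earlier results of these data known. The text names all members, the 3 genes nearest to each by r among genes with average log2 CPM (prior count 2) of at least 3, tested genes within 250 kb of the chromosome 3 cluster (counts for the other members), and up to 3 called members of a list by smallest p at 480 µg/ml. AFP, APOC3, CDH17, LUM, PECAM1, CD68, SFTPB, DDR1, CREB3L1, ITGA2, IGF1R and the nearest tested neighbour of TM4SF5, TM4SF19 and TM4SF20 were chosen after their values were seen. Alternatives were DESeq2 1.42.0, RLE factors, no filter, a stricter filter (50 counts in 2 libraries), the 2 groups alone, a replicate block, limma 3.58.1 on log2(TPM + 1) and log2(TPM + 0.1), and each library left out. RefSeq promoter sequences matched 6 of 6 members.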

Additional observations from a re-analysis of the deposited data

How the results depend on the processing

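All 4 tested TM4SF members kept a log2 fold change below 0 in all 4 comparisons under all 16 alternatives. For TM4SF5 the value came as near 0 as -0.0007 between 240 and 480 µg/ml and -0.05 at 24 µg/ml. TM4SF1 and TM4SF4 at 240 and 480 µg/ml and TM4SF18 at 480 µg/ml kept their call. Counts of called genes moved far more. At 24 µg/ml edgeR called 0 genes, against 36 by DESeq2, 83 with no filter, 14 from the 2 groups alone and 1 by limma on log2(TPM + 0.1), and 0 to 24 with a library left out. At 240 µg/ml 1892 were called, against 2907 with no filter, 5399 from the 2 groups alone and 120 to 4982 with a library left out. At 480 µg/ml 5085 were called, against 2858 from the 2 groups alone and 2248 to 7889 with a library left out. Between 240 and 480 µg/ml 47 were called, against 324 by DESeq2, 465 with no filter, 0 from the 2 groups alone, 11 and 12 by limma on log2(TPM + 1) and log2(TPM + 0.1), and 0 to 1471 with a library left out. Members called in that step numbered 1, against 2 by DESeq2, 2 with no filter, 0 from the 2 groups alone and 0 to 3 with a library left out. The members' median at 24 µg/ml was -0.41 and ran from -0.58 to -0.15 with a library left out. Without 480 µg/ml replicate 2, HPS3 and CREB3L1 changed sign at that dose, to 0.19 and -0.18; without 480 µg/ml replicate 1 they stood at -0.47 and 0.33. The cause of these shifts was not tested. With replicate number as a block, 8 genes were called between 240 and 480 µg/ml. Deviations of same-numbered libraries correlated between -0.0797 and 0.0449, and the labels do not pair them. With 2 libraries a group, depth is not what limits the abundant members, but counts of at most 4 leave TM4SF19 and TM4SF20 undescribed.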
